A study of Mus musculus with 2 samples.

Results

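The variable segments of the mouse immunoglobulin loci were examined, chosen by their symbol (Ighv, Igkv or Iglv) and by a total of at least 5 unique molecular identifiers (UMIs, counted RNA molecules) over both libraries. The reference used for counting lists 348 such segments among 32285 genes, and 210 of them were members: 106 of 185 heavy (Ighv), 101 of 160 kappa (Igkv) and 3 of 3 lambda (Iglv) segments. Of the other 138, 117 had no UMI and 21 had 1 to 4. The members included 189 V genes and 21 pseudogenes, whereas 109 of the 138 non-members were annotated as pseudogenes. The totals of members and non-members next to the limit are given as a description only. Ighv1-62-1, Igkv1-35 and Igkv11-114 had 4 UMIs and were left out, and Ighv1-21 and Igkv14-126-1 had 5 and were kept.

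A pair of libraries of single-cell RNA-seq were compared, each read from the 5' end of the transcripts. The WT library held immune cells of wild-type hearts and the Lyve1 KO library those of hearts with a global knockout of Lyve1, a hyaluronan receptor of lymphatic endothelium and of some macrophages. In both, 5 hearts were pooled after myocardial infarction (MI) at postnatal day 2, and live CD45+ cells were sorted 7 days later, at an age of 9 days. With 1 library per genotype there was no replicate, so that no difference between genotypes was tested, and the intervals below (95%, Clopper-Pearson for a share and Newcombe for a difference) cover counting error only. Where a count was 0, the share it allows was taken as 3 over the number of cells. This is tighter than the Clopper-Pearson bound (2.94% against 3.55% for 0 of 102 cells). Genotype cannot be told apart from any other difference between the pools, such as strain, litter or handling. The hearts behind single cells could not be told apart here.

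Each B cell joins 1 variable (V) segment to short D and J segments of the heavy chain locus, and 1 V segment to a J segment of a kappa or lambda locus, and normally displays 1 heavy and 1 light chain. The transcript of the joined gene starts at the V segment, and therefore the 5' end of the RNA names the segment that a cell uses. B-1 cells arise early in life and include cells with a small set of recurrent receptors, whereas follicular B cells draw on a broad repertoire and carry CD23, encoded by Fcer2a.

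The sequences of the segments that the results turn on were taken from the GENCODE M21 annotation of GRCm38, the build on which the counts were made. The 3 kappa segments of the Igkv1 family shown here were chosen after their values were seen, because they were among the segments called in the most cells and because 2 of them are close copies. The last 240 bases of the V exon are given, 5' to 3' in the direction of transcription, from chr6:68271028-68271267 for Igkv1-110, chr6:68121588-68121827 for Igkv1-117 and chr6:67610269-67610508 for Igkv1-135, all on the + strand, and capitals mark the 48 positions at which the 3 are not all alike.
Igkv1-110: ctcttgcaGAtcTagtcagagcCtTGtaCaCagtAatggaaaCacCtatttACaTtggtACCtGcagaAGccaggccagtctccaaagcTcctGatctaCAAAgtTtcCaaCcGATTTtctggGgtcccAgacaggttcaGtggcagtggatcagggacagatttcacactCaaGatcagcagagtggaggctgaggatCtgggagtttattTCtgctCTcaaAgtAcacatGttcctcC
Igkv1-117: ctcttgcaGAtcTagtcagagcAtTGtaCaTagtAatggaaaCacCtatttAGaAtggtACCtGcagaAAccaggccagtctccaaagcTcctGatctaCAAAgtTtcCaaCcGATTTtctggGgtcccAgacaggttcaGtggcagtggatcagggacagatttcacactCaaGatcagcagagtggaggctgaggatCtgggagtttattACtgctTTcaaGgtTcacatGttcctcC
Igkv1-135: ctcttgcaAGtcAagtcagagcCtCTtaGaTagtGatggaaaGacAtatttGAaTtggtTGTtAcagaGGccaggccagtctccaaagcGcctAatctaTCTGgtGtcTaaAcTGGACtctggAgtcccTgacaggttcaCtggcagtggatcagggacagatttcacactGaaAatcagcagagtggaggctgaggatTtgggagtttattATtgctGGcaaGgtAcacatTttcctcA
Igkv1-110 and Igkv1-117 differed at 9 of the 240 bases (96.3% identity), whereas Igkv1-135 had 81.7% and 81.3% identity with them. Of all 90-base windows of Igkv1-110 and Igkv1-117, 77.9% and 78.1% occurred in no other listed segment, so reads from the shared windows cannot be assigned between them.

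The V exons of Iglv1 and Iglv2 are shown because both lambda segments were called in many cells and were also found together in single cells. They lie at chr16:19085017-19085256 and chr16:19260401-19260640 on the - strand, differed at 6 of their last 240 bases (97.5% identity), and capitals mark these positions.
Iglv1: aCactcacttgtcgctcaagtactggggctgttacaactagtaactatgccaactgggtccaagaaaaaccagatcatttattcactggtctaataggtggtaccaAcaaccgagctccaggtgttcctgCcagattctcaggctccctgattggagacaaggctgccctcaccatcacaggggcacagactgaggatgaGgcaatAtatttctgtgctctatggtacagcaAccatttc
Iglv2: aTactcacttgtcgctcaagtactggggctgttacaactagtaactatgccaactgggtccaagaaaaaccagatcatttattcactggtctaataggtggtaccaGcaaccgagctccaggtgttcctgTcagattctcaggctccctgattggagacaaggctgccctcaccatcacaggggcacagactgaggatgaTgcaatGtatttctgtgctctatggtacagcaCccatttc
The last 90 bases of heavy V exons are shown for the 4 segments with many called cells or with a class difference in the same direction in both libraries, and for the pair of segments fixed as typical of B-1 cells (Ighv11-2 and Ighv12-3). They lie on the - strand, at chr12:114788372-114788461 (Ighv1-26), chr12:114288152-114288241 (Ighv3-6), chr12:114479005-114479094 (Ighv10-1), chr12:113588267-113588356 (Ighv2-2), chr12:114048241-114048330 (Ighv11-2) and chr12:114366521-114366610 (Ighv12-3). Capitals run from the last cysteine codon, which ends the framework of the V domain, to the end of the germline exon, where the D segment is joined.
Ighv1-26: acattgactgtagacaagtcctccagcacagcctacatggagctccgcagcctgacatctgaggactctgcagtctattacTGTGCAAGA
Ighv3-6: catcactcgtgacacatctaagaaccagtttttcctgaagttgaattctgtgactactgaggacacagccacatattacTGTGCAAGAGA
Ighv10-1: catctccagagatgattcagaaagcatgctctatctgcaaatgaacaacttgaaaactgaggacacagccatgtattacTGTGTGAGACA
Ighv2-2: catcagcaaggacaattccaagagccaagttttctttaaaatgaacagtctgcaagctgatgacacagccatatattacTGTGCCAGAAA
Ighv11-2: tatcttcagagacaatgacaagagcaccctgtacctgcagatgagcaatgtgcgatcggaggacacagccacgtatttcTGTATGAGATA
Ighv12-3: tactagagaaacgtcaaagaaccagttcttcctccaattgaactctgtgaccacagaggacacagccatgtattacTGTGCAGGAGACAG

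In total, the WT library held 67968938 UMIs over 5713 barcodes and the Lyve1 KO library 61555917 over 5285, of which 4187 and 3391 cells were kept, and 9 barcodes occurred in both. Lyve1 itself had 15731 UMIs (247 per 1000000 UMIs of all genes, CPM) in the kept cells of the WT library and 751 UMIs (13.1 CPM) in those of the Lyve1 KO library. Kept cells with at least 5 UMIs of Cd79a and Cd79b together, the signalling partners of the B cell receptor, were taken as B cells, which gave 392 WT and 498 KO cells. These cells held 73.4% of all V UMIs of the WT library and 95.6% of those of the KO library. Most of the remainder in WT lay in 1 barcode with 17343 V UMIs, 21.9% of the library's total, which was not among the kept cells. Whether the cell limits or the doublet score left it out was not recorded. In this barcode Ighv5-17 had 5718 UMIs and Igkv3-12 had 11495, together with 1859 UMIs of Ighm and 1562 of Jchain, the joining chain of secreted IgM and IgA. It had 6 UMIs of Cd79a and 7 of Cd79b, which meets the B cell limit of 5, so it was outside the B cells only because it was not kept. No other WT barcode had more than 1267 V UMIs.

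B cells with at least 1 UMI of Fcer2a and under 2 of Zbtb32 and Fcrl5 (117 WT and 144 KO) were compared with cells with at least 2 UMIs of Zbtb32 and Fcrl5 and none of Fcer2a (77 WT and 136 KO). Zbtb32, a transcription factor, and Fcrl5, an Fc receptor-like protein, are found in B-1 cells. A further 21 WT and 16 KO cells met both conditions, and 177 and 202 met neither. On the log2(CPM + 10) scale, 3.36% of all genes tested were at least 2-fold higher in the Zbtb32 Fcrl5 class in both libraries and 2.99% at least 2-fold lower. Of the 8 genes listed as typical of B-1 cells, 5 were at least 2-fold higher in both, among them, beside the 2 that defined the class, Cd9 (151 against 27.1 CPM in WT, 122 against 15.9 CPM in KO), Plscr1 and Ahr. Cd5, the marker of B-1a cells, had 29.4 against 9.51 CPM in WT and 24.9 against 9.09 CPM in KO, and on that scale it was past 2-fold in WT only (log2 differences of 1.01 and 0.87). Spn was likewise past 2-fold in WT only (log2 differences of 1.34 and 0.60). Bhlhe41 was past 2-fold in neither library and was lower in WT, with 30.2 against 38.0 CPM in WT and 78.4 against 43.2 CPM in KO. Of the 6 follicular genes, 5 were at least 2-fold lower in both, including Fcer2a, which the rule set to 0 in this class, and Ighd, which encodes IgD (56.5 against 407 CPM in WT, 61.9 against 433 CPM in KO). Of the 7 genes of immature B cells, 2 (Vpreb3 and Cd93) were at least 2-fold lower in both. Vpreb1, of the surrogate light chain, went the other way, with 6 against 0 UMIs in WT and 22 against 1 in KO, short of 2-fold on that scale. Summed macrophage and T cell genes stayed at or under 62.3 CPM in either class of either library. The Zbtb32 Fcrl5 class was deeper, with a median of 32174 (WT) and 30070 (KO) UMIs per cell against 11166 and 11708 in the Fcer2a class.

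Nearly all cells of both classes carried V RNA. The Fcer2a class had a median of 27 (WT) and 34 (KO) heavy V UMIs per cell and the Zbtb32 Fcrl5 class 96 and 102. As a share of the RNA the classes were closer, with 2754 and 2927 heavy V CPM in the Fcer2a class against 3299 and 3555 CPM in the Zbtb32 Fcrl5 class. Light V RNA had 6830 and 7040 CPM against 6055 and 5902 CPM. A segment was called for a chain where it had at least 3 UMIs and at least 70% of the V UMIs of that chain in the cell. A heavy segment was called in 314 of 392 WT cells (80.1%, 75.8 to 83.9%) and 415 of 498 KO cells (83.3%, 79.8 to 86.5%), a light segment in 277 (70.7%) and 360 (72.3%), and both in 259 and 332. The called segments were V genes in all but 1 WT and 1 KO heavy call (Ighv1-2, an annotated pseudogene) and 1 WT and 2 KO light calls. T cells, which should lack these transcripts, set the background. A heavy V UMI was found in 3.91% of 256 WT and 1.81% of 441 KO T cell barcodes, at median depths of 12260 and 13193 UMIs, and a heavy call was made in 1 and 0 of them (0 of 441 allows up to 0.680%). A light V UMI was found in 1.56% and 1.13% of them. Over all kept cells without Cd79a and Cd79b, which were shallower (medians of 7709 and 10161 UMIs), a heavy V UMI was found in 7.48% (WT) and 6.51% (KO) and a light one in 7.33% and 8.37%.

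**Figure D1:**
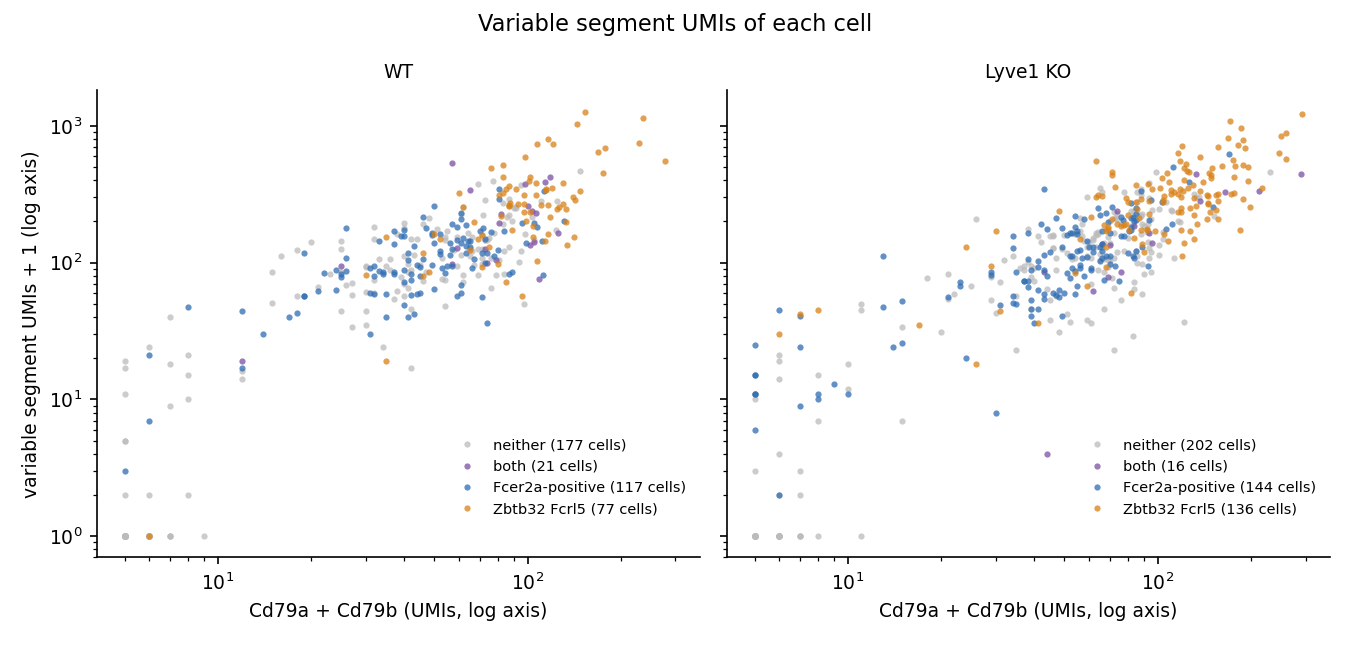
Variable segment UMIs plus 1 against UMIs of Cd79a and Cd79b, 1 point per B cell on log axes, coloured by class, for the WT (392 cells) and Lyve1 KO (498 cells) libraries. The 43 WT and 32 KO cells without V UMIs lie along the bottom at a median of 5 Cd79 UMIs, and all but 1 are in neither class.

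No V UMI was found in 43 WT B cells (11.0%) and 32 KO B cells (6.43%), as the plot of V UMIs by cell shows. These cells had a median of 5 UMIs of Cd79a and Cd79b against 61 and 69 in the other cells. Cd79b was present in every one and Cd79a in 1 WT cell. Lyz2, a lysozyme of macrophages and neutrophils, was found in 38 of the 43 WT and 29 of the 32 KO cells, and Csf1r in 38 and 27. All but 1 of the WT cells, and every KO cell, fell into neither class.

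Heavy use was spread over many segments. Of the 106 heavy members, 88 were called in at least 1 cell, 70 of them in both libraries, 5 in WT alone and 13 in KO alone, the last in at most 4 cells each. Ighv3-6 was the most used in WT, with 18 cells (5.73%, 3.43 to 8.91%), and was called in 19 KO cells (4.58%). Ighv1-26 was the most used in KO, with 23 cells (5.54%, 3.55 to 8.20%), and was called in 10 WT cells (3.18%). Ighv10-1 followed with 11 WT (3.503%) and 19 KO cells (4.58%), and Ighv2-2 with 15 (4.78%) and 12 (2.89%). These shares did not differ between the libraries beyond their intervals. The 10 most used heavy segments of each library together held 36.3% of the WT and 34.7% of the KO calls.

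Grouped by family, Ighv1, the largest, held 37.3% of WT calls (31.9 to 42.9%) and 43.1% of KO calls (38.3 to 48.1%), a difference of 5.87 percentage points (-1.33 to 12.9) that was within counting error. Ighv5 held 17.2% and 14.9%, and Ighv2 held 10.2% and 7.23%. The segments of both families lie next to the D segments and are favoured in the fetal and newborn repertoire. No heavy family differed between WT and KO beyond its interval.

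Position along the locus was read as the distance from the D segments, over which the heavy members extended from 50.5 to 2472 kb. The 22 members within 500 kb held 31.2% of WT calls (26.1 to 36.7%) and 26.0% of KO calls (21.9 to 30.5%). Segments from 500 to 1000 kb held 29.3% and 28.2%, and those from 1000 to 1500 kb held 18.2% and 17.6%. The 35 members beyond 1500 kb held 21.3% in WT (16.9 to 26.3%) and 28.2% in KO (23.9 to 32.8%). The KO share was higher beyond 1500 kb by 6.86 points (0.485 to 13.0), and within 500 kb the difference was -5.19 points (-11.8 to 1.40). The ranges were not among the comparisons fixed beforehand, and no correction was made for their number. Counting each heavy and light pair once was not tried for them. In both libraries the nearest 500 kb carried more calls per segment than the range beyond 1500 kb, with 98 (WT) and 108 (KO) calls over 22 segments against 67 and 117 calls over 35.

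**Figure D2:**
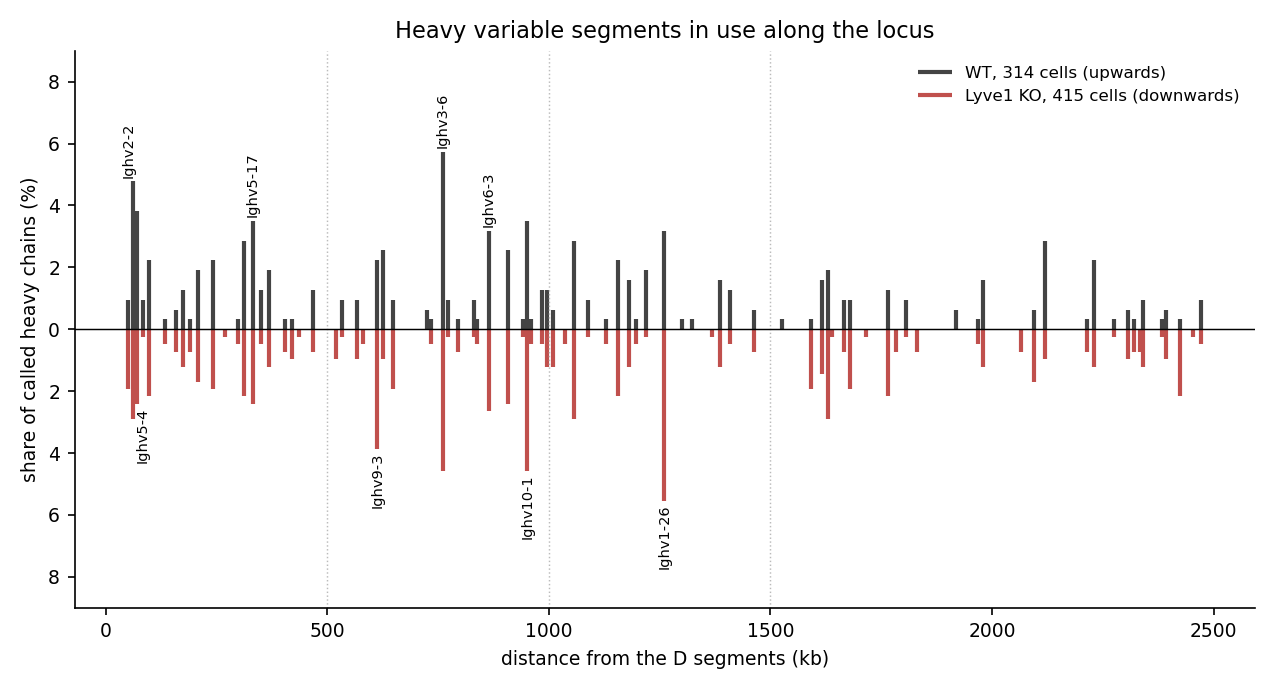
Share of called heavy chains (vertical axis, percent) for each heavy member against its distance from the D segments (kb), WT upwards and Lyve1 KO downwards, with dotted lines at 500, 1000 and 1500 kb and the 8 most used segments named. Use extended over the whole locus in both libraries, with Ighv3-6 the highest in WT (5.73%) and Ighv1-26 in KO (5.54%).

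Among light chains, the lambda segments held 38 of 277 WT calls (13.7%) and 31 of 360 KO calls (8.61%), a difference of -5.11 points (-10.3 to -0.219). The interval included 0 in 4 of the 10 alternatives tried, among them each segment pair counted once (-3.89 points, -9.46 to 1.29). Iglv1 was the most used light segment in both libraries, with 28 WT cells (10.1%) and 23 KO cells (6.39%). Iglv2 was called in 9 and 6 cells and Iglv3 in 1 and 2. RNA of the kappa constant region followed the calls, since Igkc had 431 and 443 CPM in cells with a kappa call against 89.7 and 29.2 CPM in those with Iglv1. The lambda constant regions did not separate the cells, as Iglc1 had 371 CPM in WT cells with a kappa call and 541 CPM in those with Iglv1.

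Of the 101 kappa members, 80 were called in at least 1 cell, 58 in both libraries, 7 in WT alone and 15 in KO alone. Igkv1-117 was called in 21 WT (7.58%) and 20 KO cells (5.56%), Igkv1-135 in 10 (3.61%) and 21 (5.83%), and Igkv1-110 in 8 (2.89%) and 22 (6.11%). The last of these differed by 3.22 points (-0.167 to 6.51), within counting error. Whether the likeness of Igkv1-110 to Igkv1-117 in the sequences above affected their calls was not tested. The 10 most used kappa segments held 32.1% of WT and 44.2% of KO light calls. Kappa segments on the strand of Igkj1, which are joined by deletion rather than inversion, were called in 38.5% of WT (32.3 to 45.0%) and 46.8% of KO kappa cells (41.3 to 52.4%), which is 8.32 points more in KO (0.063 to 16.3). This split was not fixed beforehand either, its lower bound lay close to no difference, and counting each heavy and light pair once was not tried.

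The segment with the largest rise in share from WT to KO was Igkv9-120, called in 3 of 277 WT cells (1.08%) and 18 of 360 KO cells (5.00%), which is 3.92 points more (1.18 to 6.77). Its UMIs numbered 691 in 5 WT cells and 2410 in 25 KO cells. Of the 18 called KO cells, 8 carried it with the same heavy segment, Ighv10-1, whereas 1 WT cell did. With each heavy and light pair counted once, Igkv9-120 took part in 3 of 224 WT pairs (1.34%) and 11 of 294 KO pairs (3.74%), and the difference of 2.40 points was within counting error (-0.607 to 5.37).

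Few other segments differed between the libraries beyond their intervals, and each rested on few cells. Ighv1-82 was called in 1 WT and 9 KO cells and Ighv1-22 in 6 and 1. Igkv16-104 was called in 6 WT and 1 KO cells. Igkv8-19 (0 WT and 8 KO cells) and Igkv6-20 (4 and 0) also differed, and were named after their values were seen. No correction was made for the number of segments compared.

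When the UMIs of all B cells were summed, more V segments than genes as a whole passed 2-fold between the libraries. The shares given for all genes include the members, which were 27 of the 46 genes higher and 15 of the 66 lower in KO. At least 20 UMIs in these cells were found for 190 members, of which 27 (14.2%) were at least 2-fold higher in KO on the log2(CPM + 10) scale, against 0.376% of the 12247 genes tested, and 15 (7.89%) at least 2-fold lower, against 0.539%. The median size of the log2 difference was 0.61 for members and 0.10 for all genes (signed medians 0.23 and -0.02, or 0.21 for members with zeros set to 3 UMIs). The summed B cells also held macrophage RNA, with 3978 CPM over 6 macrophage genes in WT and 2041 CPM in KO. Of these genes, 3 were at least 2-fold lower in KO. Requiring at least 1 UMI of Cd79a, a setting chosen after seeing the data, left out nearly all cells without V UMIs. With it, no fewer than 24 members were higher and no fewer than 14 lower in KO. The macrophage RNA that remained was not recorded, and the effect of its unequal share on single V values was not tested. Each segment is carried by few cells, and 21 of the 190 members had no UMI in 1 of the libraries. Ighv8-8, for example, had 243 UMIs in 4 WT cells and 1863 in 12 KO cells, and Ighv14-3 had 562 UMIs in 5 WT cells and 37 in 2 KO cells, both named after their values were seen. Ighv5-2, the heavy member nearest to the D segments, had 132 UMIs in 18 WT cells and 1172 in 22 KO cells (17.8 and 115 CPM), although it was called in 3 and 8 cells.

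Between the Zbtb32 Fcrl5 and the Fcer2a class, no segment differed beyond its interval in the same direction in both libraries. Of the heavy members, 10 had a higher share in the Zbtb32 Fcrl5 class in both libraries, 20 a lower share in both, and 28 went in opposite directions. The largest heavy difference with the same sign was that of Ighv2-2, called in 6 of 75 WT cells (8.0%) and 6 of 133 KO cells (4.51%) of the Zbtb32 Fcrl5 class, against 3 of 102 (2.94%) and 2 of 122 (1.64%) of the Fcer2a class. Its differences of 5.06 points (-1.80 to 13.7) and 2.87 points (-1.93 to 7.99) were within counting error. Summed UMIs of Ighv2-2 gave 516 against 45.3 CPM in WT and 240 against 62.0 CPM in KO. Ighv6-3, Ighv5-4 and Ighv2-9-1 had lower shares in the Zbtb32 Fcrl5 class of both libraries, as the plot of class differences shows, and each with an interval that included 0.

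**Figure D3:**
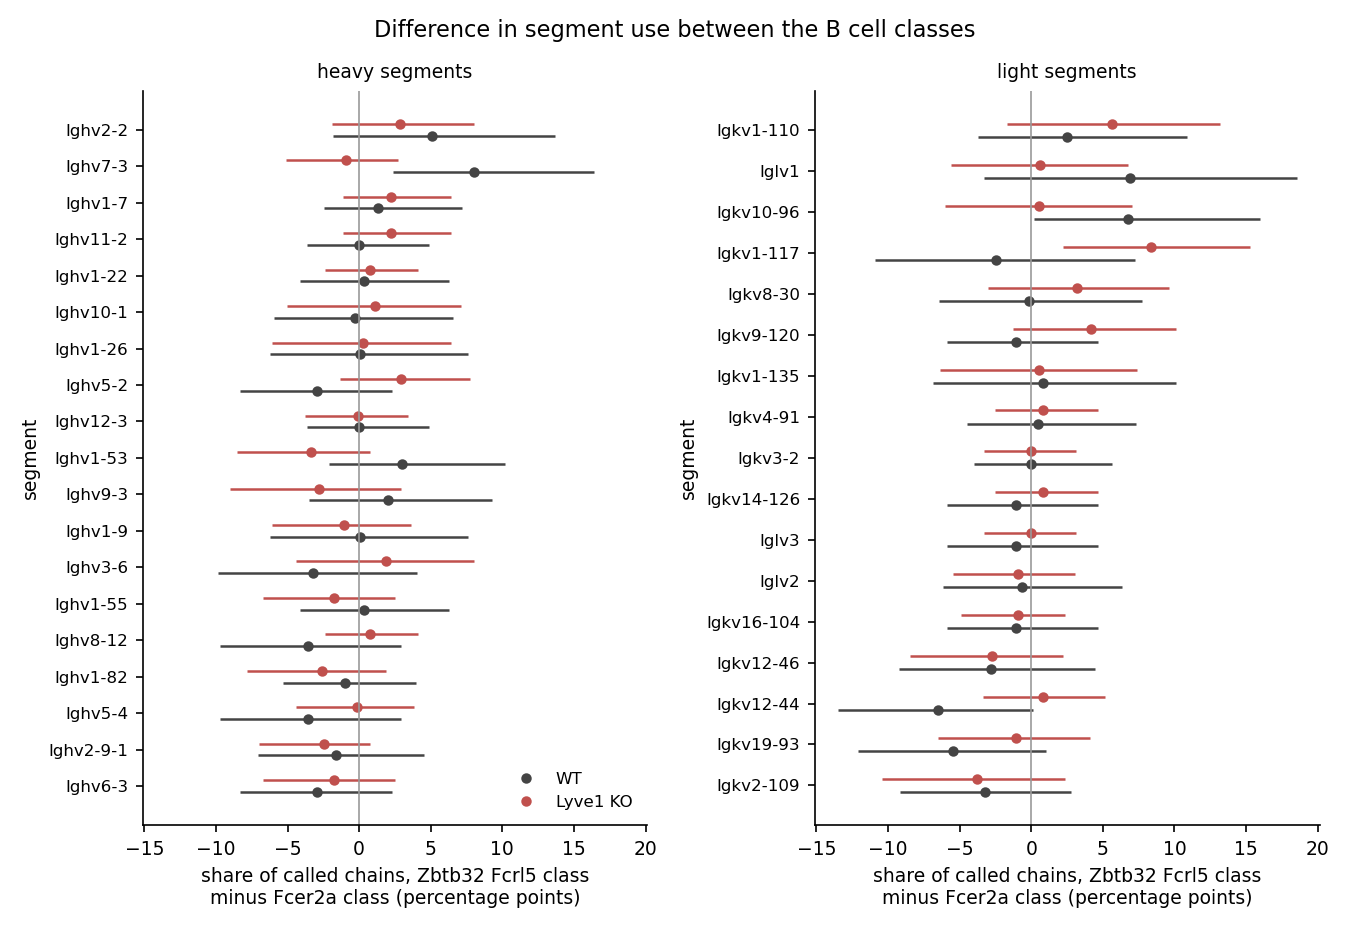
Share of called chains in the Zbtb32 Fcrl5 class minus that in the Fcer2a class (horizontal axis, percentage points) for each named segment, heavy on the left and light on the right, with the 95% Newcombe interval as a line, WT in grey and Lyve1 KO in red. Most intervals include 0, and the exceptions (Ighv7-3 and Igkv10-96 in WT, Igkv1-117 in KO) are in 1 library each.

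Differences whose interval left out 0 were found in 1 library at a time. In WT, Ighv7-3 was called in none of 102 cells of the Fcer2a class (which allows up to 2.94%) and in 6 of 75 cells of the Zbtb32 Fcrl5 class (8.0%), a difference of 8.0 points (2.39 to 16.4). In KO it was called in 2 and 1 cells. Ighv7-1, named after its values were seen, was called in 0 and 4 WT cells (5.33 points, 0.468 to 12.9) and in 3 and 0 KO cells. Of the Ighv7-3 cells in WT, 4 carried Iglv1, 3 of them in the Zbtb32 Fcrl5 class, and no KO cell had this pair. Igkv10-96 had a higher share in the Zbtb32 Fcrl5 class of WT (5 against 1 cells) and close shares in KO (7 against 6). Igkv1-117 was called in 12 of 118 KO cells of the Zbtb32 Fcrl5 class (10.2%) against 2 of 112 of the Fcer2a class (1.79%), a difference of 8.38 points (2.20 to 15.3), whereas in WT the shares were 6.25% and 8.70%. The Igkv1 family as a whole had 28.8% against 14.3% in KO (a difference of 14.5 points, 3.87 to 24.8) and 18.8% against 16.3% in WT (2.45 points, -9.29 to 15.3). The Igkv5 family had none of 118 against 6 of 112 cells in KO (-5.36 points, -11.2 to -1.09).

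The Ighv14 family, named after its values were seen, had a higher share in the Zbtb32 Fcrl5 class of both libraries. It was called in 5 of 75 cells (6.67%) against 2 of 102 (1.96%) in WT and in 8 of 133 (6.02%) against 1 of 122 (0.820%) in KO. The difference exceeded counting error in KO (5.20 points, 0.490 to 10.6) but not in WT (4.71 points, -1.49 to 12.8). The Ighv7 family went in opposite directions, with 13.3% against 0 in WT and 0.752% against 4.10% in KO.

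The segments fixed as typical of B-1 cells were rare. Ighv11-2 and Ighv12-3 are the heavy segments of B-1a cells that bind phosphatidylcholine, usually joined with Igkv14-126 and Igkv4-91. In the Zbtb32 Fcrl5 class, Ighv11-2 was called in 3 of 133 KO cells (2.26%) and in none of 75 WT cells, which allows up to 4.0%. In the Fcer2a class it was called in none of 102 WT and 122 KO cells. Ighv12-3 was called in 1 WT and 2 KO cells in all. Together the pair held 3.01% against 0.820% of calls in KO (a difference of 2.19 points, -1.92 to 6.71) and no call in either class in WT. Igkv14-126 was called in 3 cells of each library and Igkv4-91 in 2 WT and 1 KO cells. Of the 332 KO cells with both calls, 1 carried Ighv11-2 with Igkv14-126 and 1 carried Ighv12-3 with Igkv4-91, the usual combinations. Neither was found in the 259 WT cells with both calls, too few to tell the libraries apart at such low shares. The other 3 KO cells with Ighv11-2 carried Igkv1-110, Igkv1-117 and Iglv1. Igkv3-2, a further fixed segment, was called in 1 cell of each library. The fixed segments Ighv1-53 and Ighv1-55 were called in 6 and 3 WT cells and in 12 and 8 KO cells.

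Shares of lambda segments and of the D-proximal families did not differ between the classes beyond counting error when cells were counted. Lambda segments held 17.2% of the Zbtb32 Fcrl5 class against 11.96% of the Fcer2a class in WT (5.23 points, -5.75 to 17.4) and 5.93% against 6.25% in KO (-0.318 points, -7.12 to 6.31). The families Ighv2 and Ighv5 together held 25.3% against 28.4% in WT (-3.10 points, -15.8 to 10.3) and 22.6% against 19.7% in KO (2.88 points, -7.23 to 12.8). By summed UMIs, which are not independent within a cell, lambda was higher in the Zbtb32 Fcrl5 class by 12.6 points in WT and 2.74 points in KO, and the D-proximal families by 9.39 and 6.68 points. Evenness of heavy use was expressed as an effective number of segments, the inverse of the chance that 2 cells of the class share a segment. It was 54.2 (WT) and 49.9 (KO) in the Fcer2a class and 44.8 and 46.0 in the Zbtb32 Fcrl5 class.

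With UMIs summed per class, 115 members could be compared in both libraries. Of these, 7 (6.09%) were at least 2-fold higher in the Zbtb32 Fcrl5 class in both, against 3.36% of the 9309 genes tested, and 17 (14.8%) at least 2-fold lower in both, against 2.99%. The higher ones included Ighv2-2, Ighv1-7 and Igkv4-91. Igkv4-91 had 625 UMIs in WT and 258 in KO against 70 and 0 in the Fcer2a class. These UMIs rest on very few cells, since only 5 WT and 2 KO B cells had any UMI of Igkv4-91. It was called in 1 WT cell of each class and in 1 KO cell, which was in the Zbtb32 Fcrl5 class. Among the lower ones were Igkv12-44 (39 against 644 UMIs in WT, 420 against 510 in KO), Igkv19-93, Igkv16-104, Ighv2-9-1 and Iglv3. Members differed between classes by a median size of 1.69 (WT) and 1.37 (KO) on the log2 scale, all genes by 0.38 and 0.32 (signed medians -0.25 and -0.05 for members, -0.09 and -0.05 for all genes, and the same for members with zeros set to 3 UMIs). Of the members in these medians, 49 of 129 in WT and 39 of 149 in KO had no UMI in 1 of the classes. The median size with zeros set to 3 UMIs was not recorded. How much of the sizes came from such segments was therefore not determined. Both scales rest on the same few cells per segment. Ighv1-80, among the lower ones, had 26 (WT) and 38 (KO) UMIs in the Fcer2a class, from 1 cell of each library, and none in the other class. In WT, 1 UMI stood for 0.731 CPM in the Fcer2a class and 0.382 CPM in the Zbtb32 Fcrl5 class (0.568 and 0.213 CPM in KO). A segment of 1 class thus passed 2-fold lower with fewer UMIs than 2-fold higher, and no order of the classes was read from these counts.

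Cells with a second heavy segment were fewer in the Zbtb32 Fcrl5 class in both libraries. A second segment was counted where it had at least 3 UMIs and at least 20% of the chain's V UMIs, among cells with 3 UMIs of some segment of that chain. In the Fcer2a class 19 of 114 WT cells (16.7%, 10.3 to 24.8%) and 33 of 136 KO cells (24.3%, 17.3 to 32.4%) had 2 heavy segments, against 2 of 76 (2.63%) and 4 of 136 (2.94%) in the Zbtb32 Fcrl5 class. The differences were -14.0 points (-22.2 to -5.40) in WT and -21.3 points (-29.4 to -13.5) in KO. The pattern was chosen after the values were seen, and the class with fewer such cells was the deeper one, with the medians of 96 and 102 heavy V UMIs given above against 27 and 34.

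**Figure D4:**
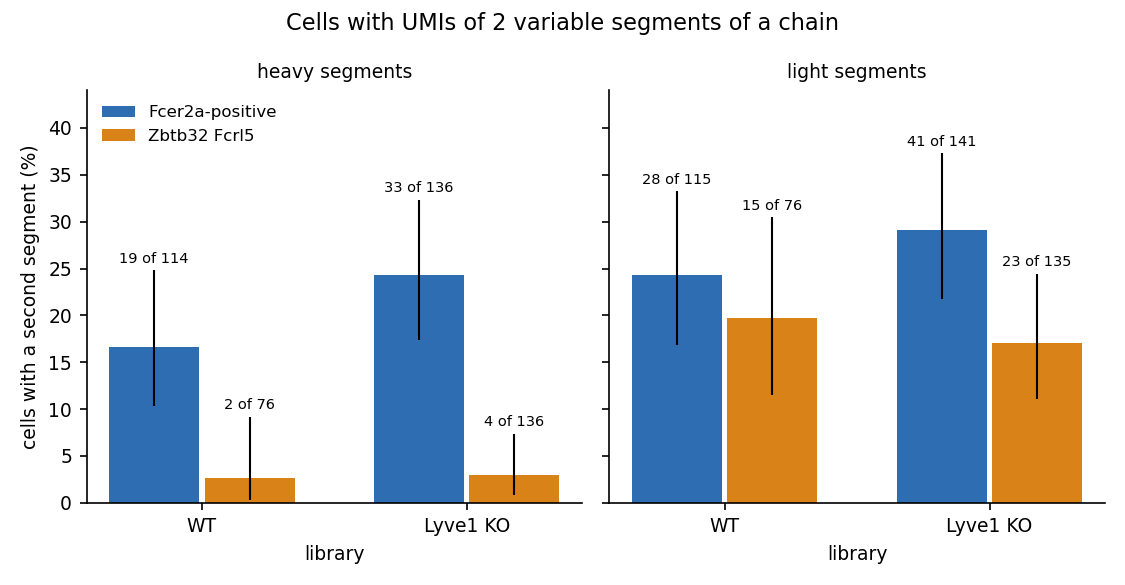
Share of cells with a second heavy (left) or light (right) segment, with 95% Clopper-Pearson intervals and counts of cells above the bars, for the Fcer2a-positive and the Zbtb32 Fcrl5 class of each library. For the heavy chain the Zbtb32 Fcrl5 bars (2.63 and 2.94%) lie below the lower bounds of the Fcer2a bars (10.3 and 17.3%), and the light bars lie closer together.

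In the Fcer2a cells with 2 heavy segments, the first had a median of 21 (WT) and 24 (KO) UMIs and the second 9 and 8. With at least 10 UMIs required of the second segment, the shares were 9 of 114 cells (7.89%) against 2 of 76 (2.63%) in WT. In KO they were 13 of 136 (9.56%) against 4 of 136 (2.94%). No interval was computed for the differences at this limit. Thinned to 3000 UMIs per cell, with at least 3 UMIs of the second segment, the shares were 7 of 83 cells (8.43%) against 1 of 27 (3.70%) in WT, a difference of -4.73 points (-13.3 to 10.5), and 14 of 101 (13.9%) against 0 of 32 in KO (-13.9 points, -21.9 to -1.85). The B cells and both classes were redrawn from the thinned counts, so these are not the same cells at equal depth. The Zbtb32 Fcrl5 class held 28 WT and 33 KO cells after thinning, against 77 and 136 before. Without thinning, the second segment of the Fcer2a cells was an annotated pseudogene in 3 of 19 WT and 3 of 33 KO cells. In none of these cells did the pair lie within 20 kb of each other. The cells with 2 heavy segments were not deeper than the rest of their class (medians of 9659 against 11477 UMIs in WT and 11740 against 11762 in KO). Of them, 6 of 19 WT and 16 of 33 KO cells also had 2 light segments, against 28 of 115 and 41 of 141 cells of the whole class. Whether some held RNA of 2 cells was not tested.

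For the light chain, a second segment was found in 28 of 115 WT (24.4%) and 41 of 141 KO cells (29.1%) of the Fcer2a class and in 15 of 76 (19.7%) and 23 of 135 (17.0%) of the Zbtb32 Fcrl5 class. The difference was beyond counting error in KO (-12.04 points, -21.7 to -2.07) but not in WT (-4.61 points, -16.0 to 7.81). Thinned to 3000 UMIs per cell, with the classes redrawn from the thinned counts, both intervals included 0 (-13.90 points, -26.7 to 4.05 in KO and -14.2 points, -25.3 to 3.37 in WT). Iglv1 together with Iglv2 was the most frequent light pair within a cell, with 3 WT and 4 KO cells, and these segments differ at 6 of the 240 bases shown.

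Some light segments were present as single molecules in many B cells that used another segment. Iglv3 had a UMI in 98 of 392 WT (25.0%) and 174 of 498 KO B cells (34.9%), but was called in 1 and 2. Where it was not called its median was 1 UMI, and 70 WT and 105 KO cells had exactly 1. Among cells without Cd79a and Cd79b, Iglv3 was found in 0 of 2659 in WT and 3 of 2043 in KO (0.147%), which places it well below its share in B cells. Igkv2-109 had a UMI in 64 WT (16.3%) and 121 KO cells (24.3%) with 5 and 13 calls, and Igkv14-111, named after its values were seen, in 62 (15.8%) and 110 (22.1%) with 5 and 12 calls. In the cells without Cd79 these were found in 0.113 to 0.489%.

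**Figure D5:**
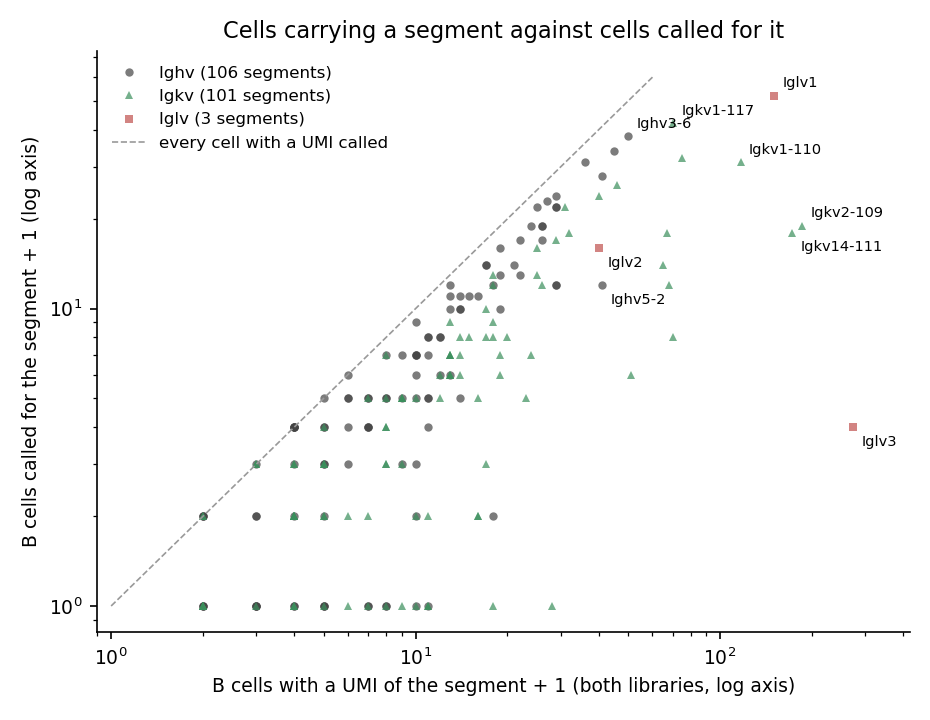
Number of B cells called for a segment against the number with any UMI of it, both plus 1 on log axes and summed over the 2 libraries, 1 point per member. On the dashed line every cell with a UMI is called, and Iglv3, Igkv2-109 and Igkv14-111 lie far to its right.

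Iglv3 RNA was lower in the Zbtb32 Fcrl5 class, with 10.3 against 54.1 CPM in WT (27 against 74 UMIs) and 15.1 against 54.6 CPM in KO (71 against 96 UMIs). The share of cells with a UMI was 23.4% against 33.3% in WT and 33.1% against 41.0% in KO. After thinning to 3000 UMIs, with the classes redrawn from the thinned counts, it was 7.14% against 15.9% and 6.06% against 15.9%. Each of these differences had an interval that included 0. Igkv14-111 was found in more cells of the Zbtb32 Fcrl5 class (27 of 77 against 9 of 117 in WT, 59 of 136 against 17 of 144 in KO). After the same thinning its shares were 14.3% (4 of 28 cells) against 4.55% (4 of 88) in WT, a difference of 9.74 points (-1.07 to 27.2). In KO they were 18.2% (6 of 33) against 5.61% (6 of 107), a difference of 12.6 points (1.23 to 29.1). In the cells not called for it, however, it had 18.5 against 44.7 CPM in WT and 26.7 against 106 CPM in KO, without thinning. The shares and the CPM thus had opposite orders, and no order of the classes was read from them.

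Pairs of heavy and light segments were mostly found once. The 259 WT cells with both calls held 224 pairs, of which 27 were in more than 1 cell, and the 332 KO cells held 294 pairs, of which 27 were in more than 1 cell. Cells of repeated pairs made up 23.9% (18.9 to 29.6%) of WT and 19.6% (15.5 to 24.3%) of KO cells. In all, 27 pairs were in both libraries, 12.1% of the WT and 9.18% of the KO pairs. The most frequent was Ighv10-1 with Igkv9-120, in 8 KO cells and 1 WT cell, 4 of the KO cells being in the Zbtb32 Fcrl5 class and none in the Fcer2a class. In the Fcer2a class it was Ighv1-55 with Igkv2-109, in 3 KO cells. A shared pair names shared segments, not a shared junction, and the joined sequences were not analysed here.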

How the data were processed

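The files the authors deposited were raw UMI counts per gene and barcode, made with Cell Ranger 8.0.1 on mm10 (GRCm38) per the file headers and labels, with 1 library per genotype and 5 hearts pooled in each. Cells needed 500 genes or more and 250 UMIs or more, with mitochondrial UMIs no higher than 30%, and the highest doublet scores (scrublet in scanpy 1.11.5, at 0.4% per 1000 barcodes) were left out, 98 in WT and 73 in KO, because the automatic limit marked 4 and 7. Median depth was 11106 and 12856 UMIs. Positions and V exons came from GENCODE M21. Ighv5-8 and Ighv1-13 each appear under 2 gene IDs, counted separately. Uniqueness was computed over 90-base windows among the listed segments.

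Segments, lists and classes were chosen with earlier results of these data known. Named segments were, by rule, all lambda segments, the 5 heavy and 5 kappa segments with the highest share in each class, the 5 with the largest class difference of 1 sign in both libraries and at least 5 cells, the 3 with the largest rise and fall from WT to KO, 9 fixed segments, the leading pair of each class, and the members at the 5 UMI limit. Others are said to be named after their values were seen. All genes with at least 20 UMIs in the cells compared entered the 2-fold counts, with 10 CPM added. Counting scripts (Python 3.11.15, numpy 2.4.6, scipy 1.17.1) were tested on simulated data.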

Additional observations from a re-analysis of the deposited data

Results flagged for a closer look

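Class differences of opposite sign in the 2 libraries were found for 3 measures, and the difference between the libraries was not tested. The share of Igkv14-126 and Igkv4-91 in the Zbtb32 Fcrl5 class minus that in the Fcer2a class was -0.611 points in WT and 1.69 points in KO. For lambda it was 5.23 and -0.318 points, and for the families Ighv2 and Ighv5 it was -3.10 and 2.88 points. All of these lay within counting error. By summed UMIs, which are not independent within a cell, the signs did not differ, and the values in WT and KO were 2.61 and 1.40 points for the kappa segments, 12.6 and 2.74 points for lambda, and 9.39 and 6.68 points for Ighv2 and Ighv5.

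V segments were also found outside the B cells compared. Among 2659 kept WT cells without Cd79a and Cd79b, a heavy segment reached the calling limit in 10, above the 3 that a count of 0 allows, against 0 of 2043 in KO. A light segment reached it in 4 WT cells (0.150%, 0.041 to 0.385%) and 1 KO cell (0.049%, 0.001 to 0.272%), with intervals that overlap. Each of the 10 heavy calls rested on 3 UMIs, and 7 of them named Ighv1-78. This segment had 81 UMIs in 51 such WT cells and none in KO, although it was found in 4 WT and 5 KO B cells. Igkv4-72 had 57 UMIs in 40 such WT cells and also none in KO, and 25 WT cells had both, whereas no WT B cell did. The WT barcode with 17343 V UMIs, which was not among the kept cells, carried Ighv5-17 and Igkv3-12. These segments were found in 30 and 39 WT cells without Cd79a and Cd79b, 9 of them with both. The source of these molecules was not tested.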

How the results depend on the processing

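With 1 library per genotype, no spread between samples could be estimated, segments carried by few cells were not resolved, and RNA of other cells was limited only by the T cell background. Reads of strains other than that of the reference may have been counted under another segment, which was not tested. No paired analysis was possible because each group is 1 library. Of the alternatives, 14 were tried, and 2 of them (at least 1 UMI of Cd79a, and without the cell with the most V UMIs) were chosen after seeing the data. No value changed sign where its interval had left out 0. With 1 CPM added instead of 10, 61 segments were past 2-fold higher and 33 lower in KO (1.72% and 2.54% of all genes), and 11 higher in the Zbtb32 Fcrl5 class in both libraries (5.91%). With at least 100 UMIs required, which left 67 segments, 4 were higher and 7 lower in that class (3.56% and 3.96%). Thinning to 3000 UMIs, with the classes redrawn from the thinned counts, moved the class difference in WT cells with 2 heavy segments to -4.73 points. The Ighv1 difference between KO and WT ranged from 3.56 points (by summed UMIs) to 9.77 points (1.80 to 17.5) where the top segment had to hold 90% of a chain's UMIs, and lambda from -6.51 to -3.89 points. The effective numbers of heavy segments ranged from 39.0 to 62.0.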
